A study of Bos taurus with 31 samples.

Results

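Fatty acid and triglyceride synthesis was followed through 4 genes in the liver of 31 female bovine fetuses on day 83 of gestation: SREBF1 (ENSBTAG00000007884), ACACA (ENSBTAG00000017567), FASN (ENSBTAG00000015980) and DGAT1 (ENSBTAG00000026356). They were chosen by name, 1 regulator and the enzymes of the route, and by no cutoff on their values. Earlier results of these data were known when the genes were chosen. The list of origin held 6 genes; SCD, the stearoyl-CoA desaturase, and DGAT2, the other acyltransferase that makes triglyceride, were not analysed here. The 4 genes stand among 27607 genes in the count table, of which 14228 had enough counts to be tested, all 4 included.

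The dams were Angus-cross heifers inseminated with female-sexed semen of 1 sire, and all were fed the same basal mixed ration. VTM dams also received ground corn carrying a premix of vitamins and minerals, at 0.45 kg per day. Its feeding began 71 to 148 days ahead of insemination, and NoVTM dams did not receive it. Below, premix stands for the premix with its corn, which the design cannot tell apart. From breeding, MG dams received a starch-based energy and protein supplement to gain 0.79 kg per day (moderate gain), while LG dams stayed on the basal ration with a target of 0.28 kg per day (low gain). There were 7 fetuses in VTM_MG (premix, moderate gain), 8 in VTM_LG (premix, low gain), 8 in NoVTM_MG (no premix, moderate gain) and 8 in NoVTM_LG (no premix, low gain). The design asked whether maternal premix, maternal gain or both altered gene expression in the fetal liver.

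Fatty acid synthesis starts from acetyl-CoA in the cytosol. Acetyl-CoA carboxylase alpha, the product of ACACA, makes malonyl-CoA in the committed step. Fatty acid synthase, the product of FASN, uses malonyl-CoA to build palmitate. SREBF1 encodes SREBP-1, a membrane-bound transcription factor that, once cleaved, raises transcription of ACACA and FASN, and that responds to insulin and to liver X receptors in rodents. DGAT1 encodes a diacylglycerol acyltransferase, which attaches the last fatty acid to complete a triglyceride. In adult cattle adipose tissue, more than liver, is the main site of fatty acid synthesis, and the fetal liver of this stage also houses blood-forming cells. In RNA from whole tissue, fewer cells of a type and less RNA per cell cannot be told apart.

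Libraries held 13062894 to 18458776 counts, and the 4 genes were read at 247 to 2880 counts per library. Levels below are CPM, counts relative to a library total that was scaled by the trimmed mean of M-values (TMM). They are compared between fetuses, never between genes, since they are not corrected for length. VTM_LG replicates 4 and 7 stood apart on the first principal component of all tested genes, at 63.0 and 37.9, against -20.2 to 6.69 in the other libraries. The identifiers in the count table are not paired with names, so the labelled tissue could not be checked against liver or blood cell markers. Other genes of lipid synthesis could not be described for the same reason.

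SREBF1 had lower values in MG than in LG fetuses, with and without the premix. In VTM_MG fetuses it had a lowest value of 61.8 CPM, a median of 68.3 and a highest value of 83.7, against 75.4, 82.0 and 97.3 CPM in VTM_LG fetuses. In NoVTM_MG fetuses these values were 48.7, 62.6 and 89.5 CPM, against 66.6, 88.4 and 99.7 CPM in NoVTM_LG fetuses. The MG and LG groups overlapped at both premix levels. Still, 14 of 15 MG fetuses lay below the LG median and 8 of 15 below the lowest LG fetus. The exception was NoVTM_MG replicate 6, at 89.5 CPM. VTM_MG replicate 4 lay just under the LG median, at 83.698 against 83.759 CPM. For such counts of fetuses, here and below, the share of all tested genes with a like split was not counted.

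Averaged over the premix, SREBF1 stood at 67.4 ± 10.7 CPM in MG (SD, n = 15) and 84.5 ± 10.2 CPM in LG (SD, n = 16). The fitted MG level was 79.9% of the LG level, a log2 fold change of -0.32 (SE 0.0704, 95% interval -0.47 to -0.18). This ranked 7 among 14228 genes by p in the quasi-likelihood test of edgeR, yet it did not pass the threshold of 0.05 after Benjamini-Hochberg adjustment over all tested genes (unadjusted p = 5.87e-05, adjusted p = 0.119). The call depended on the tool and on single libraries. SREBF1 passed in DESeq2 (adjusted p = 0.0191) and in limma voom (adjusted p = 0.0407), with log2 fold changes of -0.32 and -0.33. Without NoVTM_MG replicate 6 it also passed in edgeR (log2 fold change -0.36, adjusted p = 0.0167), whereas without VTM_LG replicates 4 and 7 it did not (log2 fold change -0.29, adjusted p = 0.322).

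FASN, whose enzyme builds palmitate, had the lowest fitted MG level of the 4 genes relative to LG. In VTM_MG fetuses its lowest, median and highest values were 74.1, 104.9 and 162.0 CPM, against 118.0, 147.4 and 155.5 CPM in VTM_LG fetuses. In NoVTM_MG fetuses they were 74.8, 101.9 and 161.6 CPM, against 91.6, 135.3 and 209.6 CPM in NoVTM_LG fetuses. Again the groups overlapped, and 12 of 15 MG fetuses lay below the LG median. The 3 MG fetuses above that median were VTM_MG replicates 4 and 6 and NoVTM_MG replicate 6.

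Averaged over the premix, FASN stood at 111.1 ± 28.8 CPM in MG and 144.8 ± 26.3 CPM in LG, a fitted 77.0% of the LG level. The log2 fold change was -0.38 (SE 0.107, 95% interval -0.60 to -0.16), which did not pass in edgeR (unadjusted p = 0.00126, adjusted p = 0.502). By p it ranked 35 among the tested genes.

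ACACA, the enzyme of the committed step, had lower values in most MG fetuses of dams without the premix and a wide spread in MG fetuses of dams with it. In NoVTM_MG fetuses its lowest, median and highest values were 20.8, 24.1 and 34.2 CPM, against 26.4, 32.1 and 37.1 CPM in NoVTM_LG fetuses. There, 7 of 8 NoVTM_MG fetuses lay below the lowest NoVTM_LG fetus, and the remaining one, replicate 6, lay above the NoVTM_LG median. With the premix the values were 16.3, 28.8 and 38.8 CPM in VTM_MG fetuses, against 25.1, 28.9 and 35.3 CPM in VTM_LG fetuses. VTM_MG fetuses thus reached both below and above the range of VTM_LG fetuses.

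Averaged over the premix, ACACA stood at 25.9 ± 6.04 CPM in MG and 30.5 ± 3.77 CPM in LG, a fitted 85.2% of the LG level. Its log2 fold change of -0.23 (SE 0.0888, 95% interval -0.41 to -0.051) did not pass in edgeR (unadjusted p = 0.0135, adjusted p = 0.615).

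DGAT1, which completes the triglyceride, had nearly the same values in every group. Its lowest, median and highest values were 38.7, 42.7 and 46.8 CPM in VTM_MG, 39.2, 45.0 and 47.3 CPM in VTM_LG, 37.7, 42.1 and 48.3 CPM in NoVTM_MG and 40.7, 43.5 and 46.6 CPM in NoVTM_LG. The 4 groups covered one another over most of their range. DGAT1 stood at 42.5 ± 3.01 CPM in MG and 43.6 ± 2.53 CPM in LG. The fitted MG level was 97.5% of the LG level, and the interval of the log2 fold change, -0.12 to 0.042, bounds any difference more closely than for the other 3 genes (SE 0.0391, edgeR adjusted p = 0.808).

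**Figure D1:**
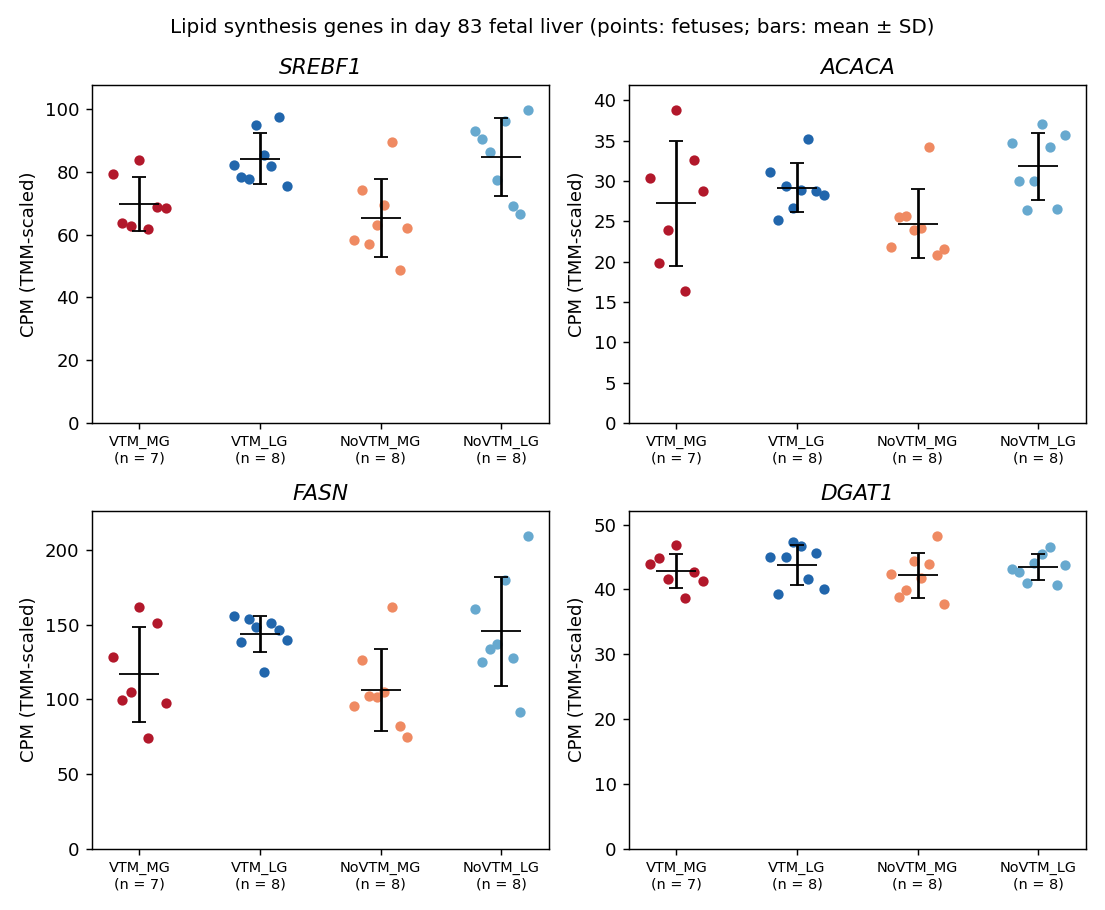
TMM-scaled CPM (vertical axes, starting at 0) of SREBF1, ACACA, FASN and DGAT1 in each fetus by group, with the mean and SD as black bars. SREBF1 averaged 69.8 CPM in VTM_MG against 84.1 CPM in VTM_LG and 65.3 CPM in NoVTM_MG against 84.8 CPM in NoVTM_LG, while DGAT1 averaged 42.1 to 43.8 CPM in all 4 groups.

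For gain averaged over the premix, 0 of the 4 genes passed in edgeR, where 0.0211% of all tested genes passed. In DESeq2 and in limma voom 1 of the 4 passed, SREBF1, where 0.0633% and 0.0351% of genes passed. At an unadjusted p under 0.05, SREBF1, FASN and ACACA were lower in MG, that is 3 of 4 genes. At that level 7.82% of all tested genes were found, and 4.21% were found lower in MG. SREBF1, FASN and ACACA varied together between fetuses, as described below, so they do not count as 3 separate results. The same 3 of 4 were found in DESeq2 (8.05% of tested genes), in limma voom (8.76%) and, in edgeR, without VTM_LG replicates 4 and 7 (4.94%). The median log2 fold change of the 4 genes was -0.28, beside -0.0012 over all tested genes. Of all tested genes, 1.97% had a lower log2 fold change than SREBF1, 1.36% than FASN, 3.91% than ACACA and 35.4% than DGAT1.

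The effect of gain was then read within each premix level, in comparisons that share no fetus. Without the premix, the log2 fold changes of NoVTM_MG against NoVTM_LG were -0.38 for SREBF1 (SE 0.0978), -0.45 for FASN (SE 0.149) and -0.36 for ACACA (SE 0.123). With the premix, those of VTM_MG against VTM_LG were -0.27 for SREBF1 (SE 0.101), -0.30 for FASN (SE 0.154) and -0.098 for ACACA (SE 0.128). For DGAT1 they were -0.043 without the premix and -0.031 with it. All 4 genes had a negative log2 fold change in both comparisons, as had 23.9% of all tested genes.

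In neither comparison did any of the 4 genes pass in edgeR, DESeq2 or limma voom, and 0% of all tested genes passed in edgeR. At an unadjusted p under 0.05 in edgeR, 3 of 4 genes were found without the premix, against 4.59% of tested genes, and 1 of 4 with it, SREBF1, against 14.8%. DESeq2 found 3 of 4 without the premix (4.76% of tested genes) and 1 of 4 with it (15%), and limma voom 3 of 4 (9.33%) and 2 of 4 (11.4%). SREBF1 was highest within VTM_LG in replicates 4 and 7, at 95.1 and 97.3 CPM. Without these libraries its log2 fold change of VTM_MG against VTM_LG was -0.20 (unadjusted p = 0.0692, edgeR), and 0 of 4 genes were found, against 5.48% of tested genes. The ACACA value with the premix rested on single fetuses: it was -0.20 without VTM_MG replicate 4 and -0.0044 without VTM_MG replicate 5, its highest and lowest fetuses.

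The size of the gain effect was not shown to depend on the premix. The interaction was 0.11 on the log2 scale for SREBF1 (95% interval -0.18 to 0.39), 0.15 for FASN (-0.28 to 0.59), 0.27 for ACACA (-0.094 to 0.63) and 0.012 for DGAT1 (-0.15 to 0.17). In edgeR 0 of 4 genes passed, where 0% of tested genes did, and 0 of 4 reached an unadjusted p under 0.05, where 10.7% did. DESeq2 and limma voom also found 0 of the 4 at either level, and 0 of all tested genes passed in them. The share of tested genes at an unadjusted p was not counted in these tools. When single libraries were left out, the interaction ran from 0.065 to 0.19 for SREBF1, 0.060 to 0.27 for FASN and 0.17 to 0.36 for ACACA. For ACACA it was 0.17 without VTM_MG replicate 4, and an unadjusted p under 0.05 was reached without VTM_MG replicate 5 (0.36, unadjusted p = 0.0301, edgeR adjusted p = 0.363) or NoVTM_MG replicate 6 (0.35, unadjusted p = 0.0485, edgeR adjusted p = 0.436).

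The premix with its corn carrier, averaged over gain, went with small differences in the 4 genes. SREBF1 stood at 77.4 ± 10.9 CPM in VTM (SD, n = 15) and 75.1 ± 15.7 CPM in NoVTM (SD, n = 16). FASN stood at 131.3 ± 26.5 CPM in VTM and 125.9 ± 37.2 CPM in NoVTM. ACACA had the same mean in both, 28.3 ± 5.60 CPM in VTM and 28.3 ± 5.47 CPM in NoVTM. DGAT1 stood at 43.4 ± 2.83 CPM in VTM and 42.8 ± 2.80 CPM in NoVTM. Each difference was smaller than the SD between fetuses, a spread that does not bound a difference of means.

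The 95% intervals of the log2 fold change for the premix ran from -0.10 to 0.18 for SREBF1, -0.16 to 0.28 for FASN, -0.17 to 0.19 for ACACA and -0.061 to 0.098 for DGAT1. For the premix 0 of 4 genes passed in edgeR, as did 0% of tested genes, while an unadjusted p under 0.05 was reached by 0 of 4 genes and 2.90% of tested genes. DESeq2 and limma voom also found 0 of the 4 at either level. Of all tested genes, 3 passed in DESeq2 and 2 in limma voom, and the share at an unadjusted p was not counted there.

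At low gain, VTM_LG and NoVTM_LG had like levels of SREBF1, at 84.1 ± 8.09 and 84.8 ± 12.5 CPM (SD, n = 8 each). FASN averaged 144.0 ± 12.1 CPM in VTM_LG and 145.6 ± 36.6 CPM in NoVTM_LG, so that the means were close and the spread between fetuses was narrower with the premix; the difference in spread was not tested. ACACA averaged 29.2 ± 3.04 CPM in VTM_LG and 31.8 ± 4.15 CPM in NoVTM_LG. At moderate gain, the mean of SREBF1 was 69.8 ± 8.57 CPM over the 7 VTM_MG fetuses and 65.3 ± 12.5 CPM over the 8 NoVTM_MG fetuses. FASN averaged 116.8 ± 31.7 CPM in VTM_MG and 106.2 ± 27.2 CPM in NoVTM_MG. ACACA averaged 27.3 ± 7.75 CPM in VTM_MG and 24.7 ± 4.25 CPM in NoVTM_MG.

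In both of these premix comparisons 0 of 4 genes passed in edgeR, DESeq2 or limma voom, where 0% of tested genes passed in edgeR. None of the 4 had an unadjusted p under 0.05 in any of these tools, against 8.25% of tested genes at low gain and 4.57% at moderate gain in edgeR.

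In the remaining comparisons both factors differed, and they share fetuses with those above. VTM_MG against NoVTM_LG gave log2 fold changes of -0.28 for SREBF1 (SE 0.101), -0.32 for FASN (SE 0.154), -0.22 for ACACA (SE 0.127) and -0.018 for DGAT1 (SE 0.0563). VTM_LG against NoVTM_MG gave 0.37 for SREBF1 (SE 0.0979), 0.44 for FASN (SE 0.149), 0.24 for ACACA (SE 0.124) and 0.056 for DGAT1 (SE 0.0544). Every VTM_LG fetus lay above the NoVTM_MG median for SREBF1, FASN and ACACA, 8 of 8 for each, and 5 of 8 did so for DGAT1. The share of all tested genes with such a split was not counted. In each comparison 0 of 4 genes passed in edgeR, DESeq2 or limma voom (0% of tested genes in edgeR). SREBF1 and FASN had an unadjusted p under 0.05 in both in edgeR, against 2.85% of tested genes for VTM_MG against NoVTM_LG and 8.94% for VTM_LG against NoVTM_MG. DESeq2 found 2 of 4 genes in each (2.93% and 9.19% of tested genes, in the same order) and limma voom 3 of 4 in each (5.07% and 7.08%). For VTM_MG against NoVTM_LG, edgeR found 1 of 4, SREBF1, without VTM_LG replicates 4 and 7 (3.83% of tested genes), and 1 to 3 of 4 when single libraries were left out, with a count other than 2 in 21 of 31 such fits. The ACACA value of that comparison was -0.33 without VTM_MG replicate 4 and -0.13 without VTM_MG replicate 5.

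SREBF1, FASN and ACACA shared the order of their group means. From the lowest up it was NoVTM_MG, VTM_MG, VTM_LG and NoVTM_LG. For all 3 genes, no pair of neighbours in that order differed past the adjusted threshold in edgeR. Over all 4 groups at once, the F test of edgeR gave an adjusted p of 0.44 for SREBF1, 0.612 for FASN, 0.612 for ACACA and 0.927 for DGAT1. The unadjusted p was under 0.05 for 3 of 4 genes in edgeR (7.99% of tested genes; 0% passed after adjustment), DESeq2 (9.09%) and limma voom (11%). In edgeR ACACA was lost from this count in 9 of the 31 fits that left out 1 library, each of them a NoVTM library.

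**Figure D2:**
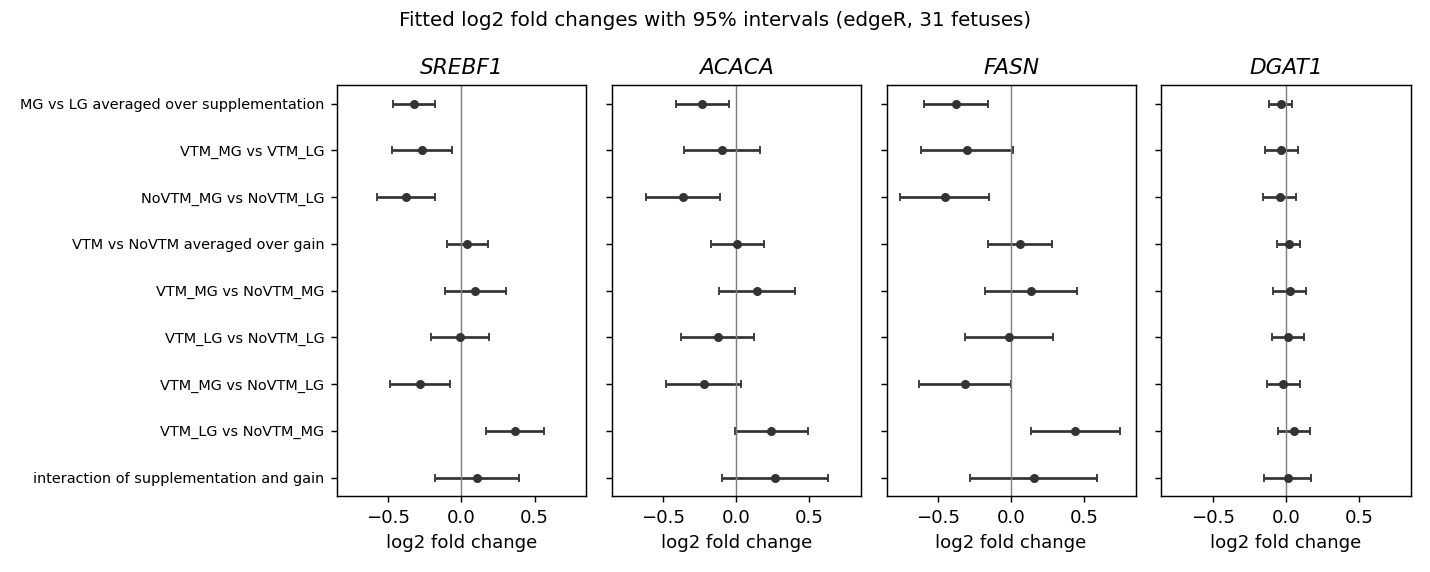
Fitted log2 fold change (horizontal axis) of the 4 genes in 9 comparisons, as points with 95% intervals from the edgeR fit of all 31 fetuses. For gain averaged over the premix the intervals of SREBF1 (-0.47 to -0.18), FASN (-0.60 to -0.16) and ACACA (-0.41 to -0.051) lie below 0, that of DGAT1 (-0.12 to 0.042) spans it, and all premix intervals span it.

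Between fetuses, SREBF1, FASN and ACACA varied together. All 3 lay above their own medians over the 31 fetuses in 9 fetuses and below them in 11. Of the 15 MG fetuses, 2 had all 3 genes above and 10 had all 3 below. Of the 16 LG fetuses, 7 had all 3 above and 1 had all 3 below. NoVTM_MG replicate 6 was high for its group in each of them, with 89.5 CPM of SREBF1, 161.6 of FASN and 34.2 of ACACA. VTM_MG replicate 5 was the lowest of its group in each, with 61.8, 74.1 and 16.3 CPM.

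Over the 31 fetuses, log2 CPM of ACACA and FASN had a Pearson r of 0.84 (Spearman rho 0.83), and that of SREBF1 and FASN an r of 0.83 (rho 0.80). SREBF1 and ACACA had an r of 0.70 (rho 0.71). In permutation tests with 100000 resamples, two-sided and adjusted over the 6 pairs of genes, the p was 3e-05, 3e-05 and 4e-05 for r, and 2e-05 for each rho. The unadjusted p of 1e-05 for the first 2 pairs and for each rho is the smallest these permutations can give. Without the 2 fetuses farthest from the median of the first gene named, r was 0.82, 0.82 and 0.68. As deviations from the group means, which leave the effects of the diets aside, r was 0.81, 0.74 and 0.59 (adjusted permutation p = 6e-05, 6e-05 and 0.001).

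The relations were also read within each level of gain. In the 15 MG fetuses r was 0.89 for ACACA and FASN, 0.79 for SREBF1 and FASN and 0.74 for SREBF1 and ACACA. In the 16 LG fetuses it was 0.60, 0.67 and 0.30. No test of the difference between MG and LG in these relations was made.

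DGAT1 followed the others weakly. Its r was 0.38 with ACACA (rho 0.38), 0.38 with FASN (rho 0.38) and 0.27 with SREBF1 (rho 0.37). The adjusted permutation p for r was 0.0439, 0.0439 and 0.144, and for rho it was 0.0401 in all 3 pairs. Without the 2 fetuses farthest from the median of the partner gene, r was 0.36 with ACACA, 0.16 with FASN and 0.46 with SREBF1. The unadjusted permutation p for r was then 0.0555, 0.402 and 0.0134 (n = 29). Which relations of DGAT1 stood out thus depended on the fetuses kept. As deviations from the group means r was 0.33, 0.31 and 0.16, with adjusted permutation p of 0.101, 0.109 and 0.385.

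**Figure D3:**
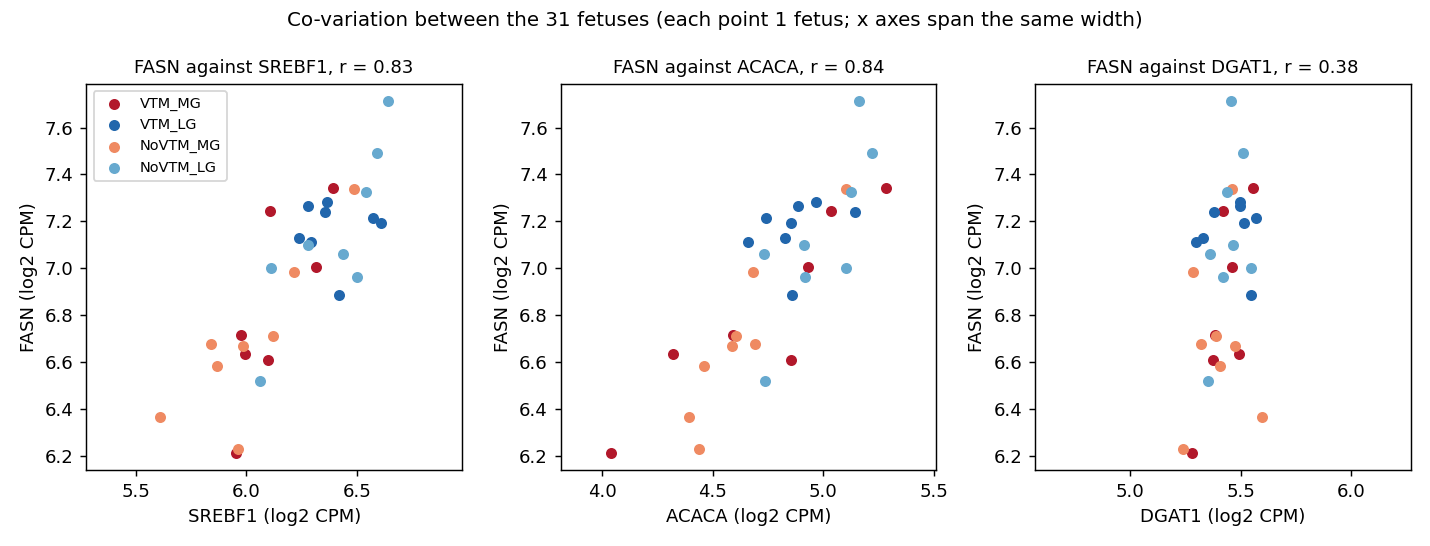
Log2 CPM of FASN (vertical axes) against SREBF1, ACACA and DGAT1 (horizontal axes of equal width), with each point 1 fetus coloured by group. FASN is higher in fetuses with more SREBF1 (r = 0.83) and more ACACA (r = 0.84), whereas DGAT1 spans little of its axis (r = 0.38).

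The relations were then ranked among those of each gene with every other tested gene. FASN was the gene nearest to ACACA among 14227 others by r, and SREBF1 ranked 4 and ACACA ranked 2 among the genes nearest to FASN. DGAT1 ranked 1261 there. ACACA ranked 17 among the genes nearest to SREBF1, and SREBF1 ranked 20 among those nearest to ACACA. With FASN, 4.04% of the other genes had an r over 0.5 and 0.239% an r over 0.7, and the median r was -0.030. With DGAT1, 0.38% had an r over 0.5 and 0 an r over 0.7. These ranks describe the same 31 libraries and carry no test.

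The gene nearest to both SREBF1 and FASN was ENSBTAG00000055207, with an r of 0.85 to each over the 31 fetuses (rho 0.84 and 0.79). As deviations from the group means its r was 0.72 with SREBF1 and 0.79 with FASN. This gene is 1 of the 3 that passed in edgeR for gain averaged over the premix. It had a mean of 276.5 ± 41.6 CPM over the 15 MG fetuses and 361.2 ± 47.8 CPM over the 16 LG fetuses, so that its log2 fold change was -0.38 (SE 0.0681, edgeR adjusted p = 0.0207). The gene nearest to DGAT1 was ENSBTAG00000011556, with an r of 0.65 (rho 0.62, n = 31). Neither identifier is paired with a name here, and nothing is said of their function.

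**Figure D4:**
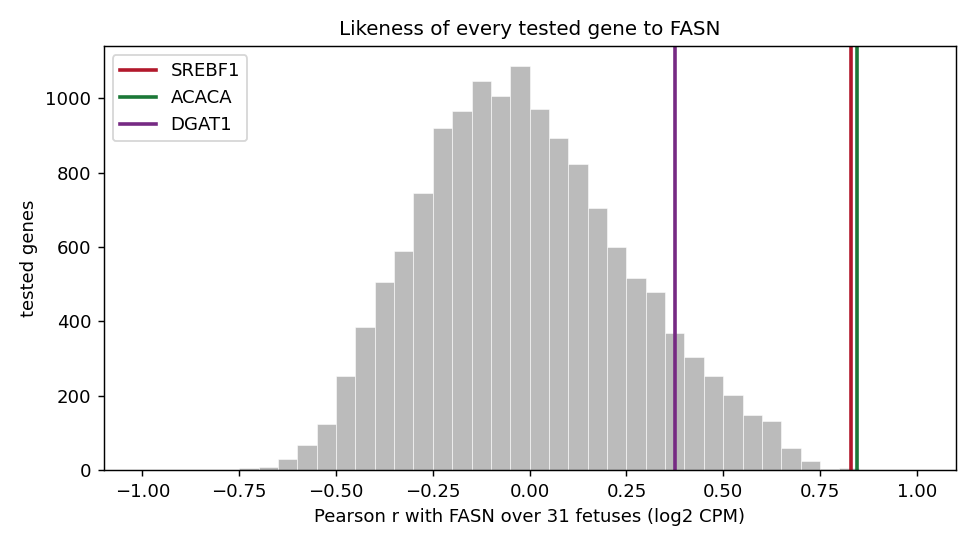
Number of tested genes (vertical axis) by their Pearson r with FASN in log2 CPM over 31 fetuses (horizontal axis, bins of 0.05), with vertical lines for SREBF1, ACACA and DGAT1. SREBF1 (0.83) and ACACA (0.84) lie at the far right of the distribution and DGAT1 (0.38) within its right flank.

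The 4 genes differed in how much they varied among fetuses of a group. The SD of log2 CPM within groups was 0.32 for FASN, 0.26 for ACACA, 0.21 for SREBF1 and 0.096 for DGAT1, beside a median of 0.22 over all tested genes. Of the tested genes, 71.1% varied less than FASN, 60.7% less than ACACA and 44.6% less than SREBF1. For DGAT1 this share was 2.33%, so it was among the steadiest genes of the fetal liver libraries. In edgeR the biological coefficient of variation was 20.7% for FASN, 16.8% for ACACA, 13.6% for SREBF1 and 7.33% for DGAT1. Counting error alone, at their mean counts, would give 2.30%, 4.89%, 2.98% and 3.97%.

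**Figure D5:**
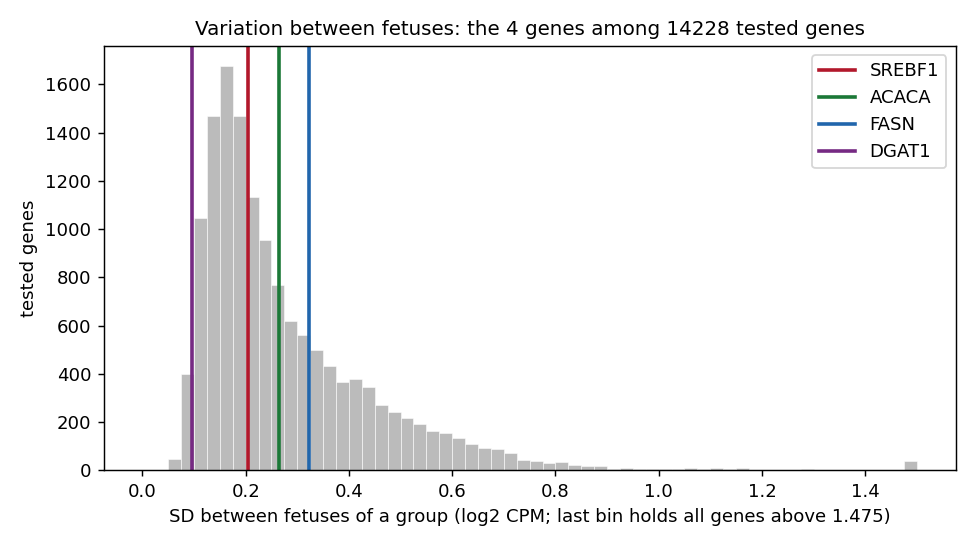
Number of tested genes (vertical axis) by the SD of log2 CPM between fetuses of a group (horizontal axis, bins of 0.025; the last bin holds all larger values), with vertical lines for the 4 genes. DGAT1 (0.096) lies at the left edge, SREBF1 (0.21) near the median of 0.22, and ACACA (0.26) and FASN (0.32) to its right.

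The balance between the enzymes of fatty acid synthesis was read as the log2 ratio of ACACA to FASN counts, in which depth cancels within a library. It averaged -2.11 ± 0.177 in VTM_MG, -2.30 ± 0.161 in VTM_LG, -2.08 ± 0.160 in NoVTM_MG and -2.16 ± 0.246 in NoVTM_LG (SD, n = 7, 8, 8 and 8). Over both premix levels it was -2.09 ± 0.163 in MG and -2.23 ± 0.213 in LG. The groups overlapped, and no test was made of this ratio.

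Library measures were set beside the 4 genes. Total counts had an r of -0.13 to 0.028 with them, and a rho of -0.16 to 0.16. The first principal component had an r of -0.13 to 0.29 and a rho of -0.25 to 0.056, and the adjusted permutation p for r was at least 0.33 in all 8 of these relations. P-values were adjusted over 12 relations. The second component, which carried 7.91% of the variance, had an r of 0.61 with FASN, 0.60 with ACACA, 0.50 with SREBF1 and 0.20 with DGAT1 (rho 0.63, 0.54, 0.49 and 0.15). The adjusted permutation p for r was 0.00144, 0.00144, 0.0197 and 0.544, and for rho 0.00264, 0.00996, 0.0261 and 0.625. Without the 2 libraries farthest out, r was 0.57, 0.52, 0.46 and 0.11. The component averaged -1.67 ± 13.7 in MG and 1.57 ± 9.17 in LG. With it as a covariate, a setting chosen after the data were seen, the log2 fold changes for gain were -0.30 for SREBF1, -0.35 for FASN and -0.21 for ACACA (edgeR adjusted p = 0.0665, 0.19 and 0.447). Which cells or conditions this component reflects was not tested. Its relation to the TMM factors, which ran from 0.931 to 1.09 over the libraries, was not tested either. The lowest value of the component, -17.96 in NoVTM_MG replicate 7, came with the lowest factor. Its highest value, 20.89 in VTM_MG replicate 4, came with a factor of 1.0856. Some libraries went the other way, such as VTM_LG replicate 4, with 15.19 and a factor of 0.95828.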

How the data were processed

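Per the labels, total RNA of fetal liver was sequenced from strand-specific libraries in read pairs. The submitters' processing notes name CASAVA, FastQC 0.11.8, MultiQC 1.9, STAR 2.7.3a and edgeR, without roles. For the counting program, its strand setting, the genome build and the annotation, the sources are silent (not given in the sources used here). Raw counts per Ensembl gene, not normalized, make up the table deposited by the authors, and columns were matched to samples by title. No pair of libraries matched within sampling noise (465 pairs, chi-square per degree of freedom at least 6.6). Neither a batch nor a breeding group is labelled for single samples. Replicate numbers follow sample order and are names only. Each fetus came from its own dam, with 1 sire in common, so p-values rest on the spread among paternal sisters.

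Gene symbols are those of the list that defined the 4 genes. The supplied reference gene table pairs 0 of its 37063 genes with an Ensembl identifier, so the lists of related lipid genes and cell type markers, and a motif search, could not be run. In that table (RefSeq, ARS-UCD2.0) SREBF1 overlaps RAI1 and MIR33B, DGAT1 overlaps HSF1, and ACACA and FASN overlap 3 genes and 1 gene, on either strand. Whether reads from shared stretches were told apart by strand is not known, since the strand setting of the counting is not given.

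The main test was edgeR 4.0.16 (R 4.3.3): filterByExpr on the 4 groups (minimum count 10, minimum total 15), TMM scaling, 1 mean per group over 31 libraries, quasi-likelihood F tests, and Benjamini-Hochberg adjustment over all tested genes within each comparison. SEs come from the log2 fold change and its F statistic. Log2 CPM used a prior count of 2. The alternatives were scaling by relative log expression (RLE), other filters, DESeq2 1.42.0, limma 3.58.1 (voom, quality weights), a robust fit, the compared groups alone, principal components as covariates, and libraries left out. Named genes are the 4 genes and, for each, the tested gene of at least 1 CPM with the highest r. The scripts were tested on simulated data. The genes, lists and tests were chosen with earlier results of these data known.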

Additional observations from a re-analysis of the deposited data

Results flagged for a closer look

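Of 20 sets of values examined (the CPM of each of the 4 genes and the ratio of ACACA to FASN, in each group), 2 held a fetus whose distance to its nearest neighbour was large for the group's range; chance gives about 1 in 20. ACACA in NoVTM_MG replicate 6 was 34.24 CPM, and the next highest of the group was 25.7 CPM. SREBF1 and FASN were also highest of the group in that fetus, and without it SREBF1 passed for gain in edgeR. FASN in VTM_LG replicate 5 was 118 CPM, and the next lowest of the group was 138.4 CPM. SREBF1 in that fetus was 85.3 CPM, above the group median of 82.0 CPM.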

How the results depend on the processing

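The number of the 4 genes past the threshold for gain averaged over the premix was 0 in edgeR, 1 in DESeq2, 1 in limma voom and 0 to 1 when each library was left out in turn; in every other comparison it was 0 under all settings run. The cause was not tested. For that gain effect, SREBF1 ranged from -0.36 to -0.29 on the log2 scale over 40 other settings and passed in 3, with adjusted p of 0.0167 to 0.322. By the same settings FASN ranged from -0.44 to -0.33, ACACA from -0.28 to -0.18 and DGAT1 from -0.049 to -0.022, and they passed in 0. The number of gene pairs correlated past an adjusted p of 0.05 was 5 of 6, and 3 as deviations from the group means, where the pairs with DGAT1 were lost. Without the 2 fetuses farthest from the median of the partner gene, the pairs with DGAT1 also moved. Their unadjusted permutation p was 0.0555 with ACACA, 0.402 with FASN and 0.0134 with SREBF1. Signs turned in comparisons near 0. DGAT1 in VTM_LG against NoVTM_LG (0.013) became -0.015 in limma voom, -0.012 with the first component as a covariate, -0.016 without VTM_LG replicates 4 and 7, and ranged from -0.0070 to 0.034 without single libraries. With that covariate, DGAT1 in VTM_MG against VTM_LG became 0.00075 and FASN in VTM_LG against NoVTM_LG became 0.017, and that FASN value ran from -0.093 to 0.078 without single libraries. ACACA for the premix (0.0082) became -0.044 with the second component as a covariate and ran from -0.048 to 0.055 without single libraries. Without single libraries, SREBF1 in VTM_LG against NoVTM_LG ran from -0.059 to 0.024, DGAT1 in VTM_MG against NoVTM_LG from -0.043 to 0.0045, and its interaction from -0.0098 to 0.051. With the second component as a covariate the interaction was 0.044 for SREBF1, 0.0080 for FASN and 0.14 for ACACA.

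Over all tested genes, the count past the threshold for gain was 3 in edgeR, 9 in DESeq2, 5 in limma voom and 0 to 7 without single libraries. It was 0 in edgeR and 9 in DESeq2 for NoVTM_MG against NoVTM_LG, 0 and 3 for the premix, 0 and 6 for VTM_LG against NoVTM_MG, 0 and 13 for any difference among the groups, and up to 23 without single libraries for VTM_MG against VTM_LG. No paired analysis was possible because the labels give no replicate numbers shared between groups.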
